A study of Mus musculus with 6 samples.

Results

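The genes described here are 10 markers of cardiac fibroblasts that do not encode collagens: Pdgfra, Tcf21, Cd248, Dpt, Mfap4, Mfap5, Gsn, Clec3b, Pi16 and Meox1. A probe set was kept when the annotation of the array gave it exactly 1 gene symbol and that symbol was one of the 10. This gave 20 probe sets, of 45037 that were no controls, and each of the 10 genes had at least 1. They were read in 6 samples of heart tissue from male mice aged 5 to 6 months and fasted for 6 hours. The Cav1KO group holds 3 hearts labelled as lacking Cav1, the gene of caveolin-1, and the WT group 3 wild-type hearts. The labels state neither the strain nor the deleted stretch of Cav1, and name no cell type to which the deletion was limited. They also do not say that each sample came from its own animal, so p-values describe the spread between these samples.

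Fibroblasts of the heart make and maintain the matrix between muscle cells. At rest they carry the PDGF receptor Pdgfra and the transcription factor Tcf21, and a subset beside vessels is marked by genes such as Pi16 and Clec3b in mouse tissues. After injury or pressure overload in mice, many of them switch to an activated state that deposits matrix, and the homeobox gene Meox1 is one of the factors switched on in that state. Caveolae, the membrane pits that caveolin-1 coats, are abundant in fibroblasts as well as in endothelial cells and adipocytes.

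The hearts were alike in their deposited array medians, from 43.9 to 45.8. Trimmed means of the deposited intensity were 163 to 168, except for 155 in WT replicate 1. Cav1 averaged an intensity of 107 ± 9.85 in Cav1KO hearts and 3968 ± 215 in WT hearts (SD, n = 3 each). Heart muscle markers were bright and alike: the 10 summed to 170086 to 172060 in Cav1KO hearts and to 170358 to 172294 in WT hearts. None of these 10 passed the test described next, and 0 of them had an unadjusted limma p under 0.05. All 10 lay at percentile 99.3 of the array or above. Quantile normalisation, used for these values, gives the brightest probe sets nearly the same values in each heart. Mb, for example, read 21201 in all 3 Cav1KO hearts. Ryr2, the dimmest of the 10, read 5373 to 6069 over the hearts. The likeness of these markers thus does not measure muscle content, and the part of the processing in it was not tested.

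Of the 10 fibroblast markers, Clec3b fell, Meox1 and Mfap5 rose, and the other 7 did not pass the test. Intensities were quantile normalised, and every fold change is Cav1KO minus WT in units of log2(intensity + 16). The added 16 makes changes of dim genes look smaller than they are. Each probe set in the brighter 50% of the array was tested with limma, with Benjamini-Hochberg adjustment across the 22519 tested and a threshold of 0.05. Of the 20 marker probe sets 15 were bright enough to be tested. Of these, 2 passed as higher and 1 as lower, where 2.36% of all tested probe sets passed as higher and 0.813% as lower, 3.17% together. The markers were chosen with earlier results of these data known, so this count is a description. The median log2 fold change was 0.045 over the 15 tested marker probe sets and -0.0096 over all tested. In bulk tissue, fewer fibroblasts and less RNA per fibroblast cannot be told apart.

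**Figure D1:**
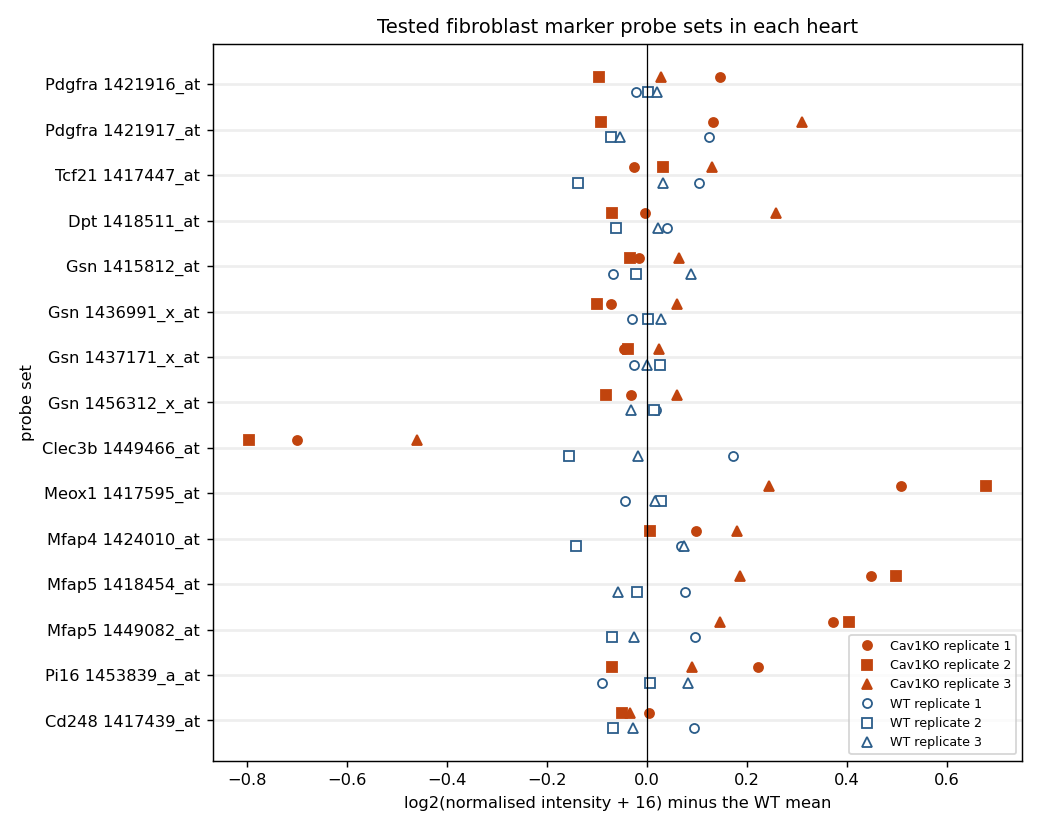
Each row is one of the 15 tested marker probe sets, and the horizontal axis is log2(normalised intensity + 16) minus the mean of the WT hearts. Filled symbols are the 3 Cav1KO hearts and open symbols the 3 WT hearts, with the symbol shape giving the replicate. The Cav1KO hearts lie left of all WT hearts for Clec3b and right of them for Meox1 and both Mfap5 probe sets, and the groups overlap in the other 11 rows.

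Clec3b encodes tetranectin, a secreted C-type lectin protein that binds plasminogen. Its 1 probe set, 1449466_at, read 162, 151 and 195 in the Cav1KO hearts, against 310, 244 and 270 in the WT hearts. All Cav1KO hearts were below all WT hearts, and the highest Cav1KO value was that of replicate 3. The means were 169 ± 22.7 in Cav1KO hearts and 275 ± 33.5 in WT hearts (SD, n = 3 each), so that Cav1KO hearts held 61.6% of the WT intensity. The log2 fold change was -0.65 (SE 0.11, 95% interval -0.89 to -0.41, limma adjusted p = 0.0146). Only 31 of the 22519 tested probe sets had a more negative log2 fold change. The call held in 12 of 15 alternative settings, and was lost without Cav1KO replicate 1, Cav1KO replicate 2 or WT replicate 3 (limma adjusted p = 0.0853, 0.0657 and 0.0613).

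Pi16 encodes a secreted or membrane-anchored protein of the CAP family and is another marker of resting fibroblasts. Its brighter probe set, 1453839_a_at, read 319, 258 and 290 in the Cav1KO hearts, against 254, 273 and 288 in the WT hearts. The groups overlapped, with the highest value in Cav1KO replicate 1 and the lowest in WT replicate 1. The log2 fold change was 0.081 (95% interval -0.11 to 0.27, limma adjusted p = 0.598), and this interval does not reach the change of Clec3b. It was 0.010 without Cav1KO replicate 1 and 0.16 without Cav1KO replicate 2. Its other probe set, 1422026_at, was among the dim ones that were not tested, at 28.3 to 30.3 in Cav1KO hearts and 25.8 to 29.4 in WT hearts.

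Meox1 encodes a homeobox transcription factor known from somite development. Its 1 probe set, 1417595_at, read 209, 237 and 171 in the Cav1KO hearts, against 137, 145 and 144 in the WT hearts. All Cav1KO hearts were above all WT hearts, and Cav1KO replicate 3 was the closest to them. The WT hearts lay close together, with a mean of 142 ± 4.21, while the Cav1KO hearts spread more, at 206 ± 33.0 (SD, n = 3 each). The log2 fold change was 0.48 (SE 0.10, 95% interval 0.25 to 0.71, limma adjusted p = 0.0425), or 145% of the WT mean intensity. The call held in 7 of 15 alternatives: among those that ended it were testing the upper 75% of probe sets or all of them (limma adjusted p = 0.0524 and 0.0595) and a variance prior without trend (0.0676). Leaving out any heart other than Cav1KO replicate 3 ended it too, at limma adjusted p = 0.167 and 0.129 without Cav1KO replicate 1 or 2, and 0.110, 0.0643 and 0.125 without WT replicate 1, 2 or 3.

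**Figure D2:**
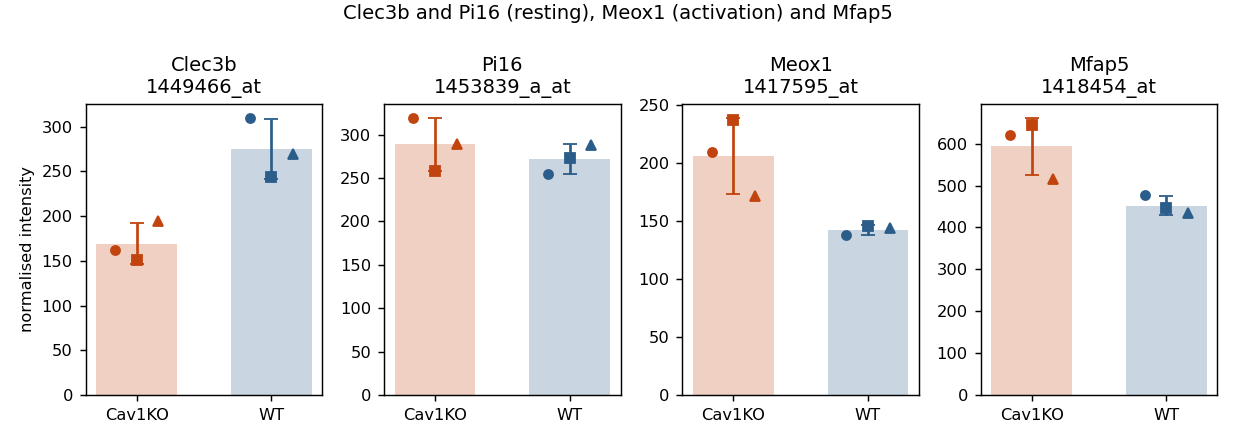
Normalised intensity (vertical axes from 0) of the brighter probe set of Clec3b, Pi16, Meox1 and Mfap5 in Cav1KO and WT hearts. Bars are means, error bars the SD of 3 hearts, and circle, square and triangle mark replicates 1, 2 and 3. Clec3b averages 169 in Cav1KO hearts and 275 in WT hearts, Meox1 averages 206 in Cav1KO hearts and 142 in WT hearts, and Pi16 overlaps between the groups.

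The resting and the activation marker were also compared within each heart, as the log2 value of Meox1 minus that of Clec3b, set to a mean of 0 in WT hearts. The Cav1KO hearts stood at 1.21, 1.47 and 0.70, against -0.22, 0.18 and 0.034 for the WT hearts. The groups did not overlap, and their difference of 1.13 gave p = 0.1 in an exact two-sided permutation test, the smallest that 3 against 3 hearts allow. Each of these genes alone already separated the groups, in opposite directions. The separation and its p were thus fixed in advance and add no support. Against Pi16, the same measure was 0.29, 0.75 and 0.15 in Cav1KO hearts, against 0.045, 0.021 and -0.066 in WT hearts. That difference was 0.40, also with an exact permutation p = 0.1. Both differences had a Benjamini-Hochberg adjusted p of 0.1 over the pair of exact permutation tests. The difference from Pi16 is the 0.48 of Meox1 less the 0.081 of Pi16, so it mostly repeats Meox1 and adds no support. The directions were known from earlier results of these data. Without Cav1KO replicate 2 the difference from Pi16 was 0.22. Set against Pdgfra, Tcf21, Dpt or Mfap4 in the same way, Meox1 did not separate the groups, because Cav1KO replicate 3, at -0.066, 0.11, -0.016 and 0.062, lay within the range of the WT hearts. The groups overlapped against Mfap5 too. Against Gsn and Cd248 they did not, with differences of 0.49 and 0.50 (exact permutation p = 0.1 each).

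Among the matrix proteins, Mfap5 rose at 1 of its 2 probe sets, while Mfap4 and Dpt did not pass. Mfap5, or MAGP-2, is a small glycoprotein of fibrillin microfibrils. Its brighter probe set, 1418454_at, read 622, 644 and 516 in Cav1KO hearts, against 477, 445 and 433 in WT hearts. The log2 fold change was 0.38 (SE 0.083, 95% interval 0.19 to 0.56, limma adjusted p = 0.0456). Its dimmer probe set, 1449082_at, read 166, 170 and 140 in Cav1KO hearts, against 134, 118 and 122 in WT hearts, with a log2 fold change of 0.31 (95% interval 0.12 to 0.50, limma adjusted p = 0.0956). At both probe sets all Cav1KO hearts were above all WT hearts, with replicate 3 the lowest of the Cav1KO hearts. The brighter probe set held its call in the same number of alternatives as Meox1, 7 of 15. It lost it with the upper 75% of probe sets (limma adjusted p = 0.0554), with no filter (0.0647), without a trend (0.0814), without Cav1KO replicate 1 or 2 (0.182 and 0.156) and without WT replicate 1, 2 or 3 (0.0764, 0.0792 and 0.149). With array weights the dimmer one passed as well, at limma adjusted p = 0.0448. Mfap5 lies on the same chromosome as Cav1, with 2014 annotated genes between them, and none of the other 9 markers does.

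Mfap4, a fibrinogen-related glycoprotein found with elastic fibres, read 208, 194 and 221 in Cav1KO hearts, against 203, 173 and 204 in WT hearts. Its log2 fold change was 0.095 (95% interval -0.084 to 0.27, limma adjusted p = 0.516). Despite the shared name it belongs to another protein family than Mfap5. Dpt, dermatopontin, binds decorin and takes part in collagen fibril assembly. It read 1960, 1873 and 2356 in Cav1KO hearts, against 2021, 1884 and 1996 in WT hearts, a log2 fold change of 0.062 (95% interval -0.11 to 0.24, limma adjusted p = 0.677). For both genes Cav1KO replicate 3 was the highest heart, and the groups overlapped.

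The markers that define the lineage did not pass. Pdgfra, the receptor through which PDGF ligands drive fibroblast growth, had its brightest probe set, 1421917_at, at 548, 467 and 622 in Cav1KO hearts, against 545, 474 and 480 in WT hearts. The groups overlapped, and the log2 fold change was 0.12 (95% interval -0.11 to 0.34, limma adjusted p = 0.524). A second tested probe set, 1421916_at, stood at 0.027 (95% interval -0.15 to 0.20, limma adjusted p = 0.865). The dimmest, 1438946_at, was not tested and read 28.9, 33.6 and 27.9 in Cav1KO hearts, against 22.5, 23.3 and 26.3 in WT hearts. Its groups did not overlap, and with no filter on low values it had a limma adjusted p of 0.216 at a log2 difference of 0.20.

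Tcf21, a basic helix-loop-helix factor needed for fibroblasts to form from the epicardium in mice, read 318, 332 and 356 in Cav1KO hearts at probe set 1417447_at, against 350, 293 and 332 in WT hearts. Its log2 fold change was 0.045 (95% interval -0.12 to 0.21, limma adjusted p = 0.757). A dim Tcf21 probe set, 1458887_at, was not tested, at 14.7 to 20.3 in Cav1KO hearts and 17.6 to 22.7 in WT hearts. Cd248, the membrane glycoprotein endosialin, which pericytes also carry, read 134, 129 and 130 in Cav1KO hearts, against 144, 127 and 131 in WT hearts. Its log2 fold change was -0.026 (95% interval -0.18 to 0.12, limma adjusted p = 0.849). All 3 genes thus had overlapping groups at their brightest probe sets.

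Gsn, gelsolin, severs and caps actin filaments and also has a secreted plasma form. It had 6 probe sets, 4 of them bright. The brightest, 1456312_x_at, read 8824, 8519 and 9408 in Cav1KO hearts, against 9130, 9106 and 8824 in WT hearts. The log2 fold changes of the 4 tested probe sets lay between -0.037 and 0.0049, with limma adjusted p from 0.659 to 0.960. The outer bounds of their 95% intervals were -0.14 and 0.11, the narrowest limits among the markers. The suffix x_at marks probe sets that may also bind other transcripts, and 3 of the 4 carry it. The 2 dim Gsn probe sets, 1456568_at and 1456569_x_at, were not tested, and the first of them read 9.63 to 10.5 in Cav1KO hearts and 8.35 to 10.1 in WT hearts.

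**Figure D3:**
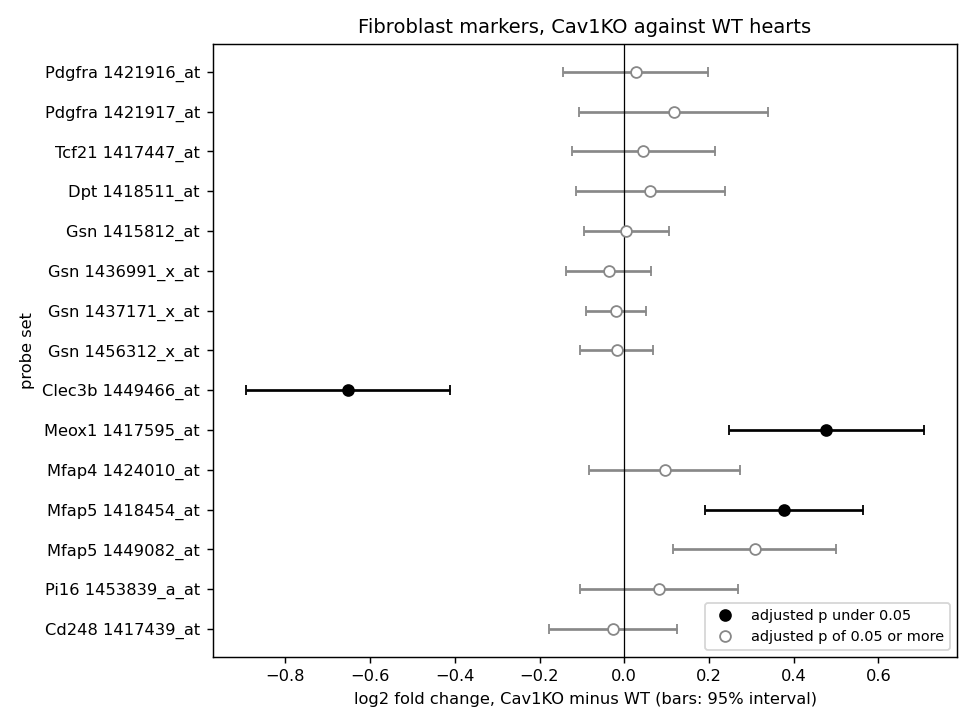
Log2 fold change of Cav1KO against WT hearts for the 15 tested marker probe sets, with bars for the 95% interval from limma. Filled symbols passed at an adjusted p of 0.05. Clec3b stands at -0.65, Meox1 at 0.48 and the brighter Mfap5 probe set at 0.38, while the intervals of the markers that did not pass cross 0, except that of the dimmer Mfap5 probe set.

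Groups that did not overlap were found at 4 of the 15 tested probe sets, 3 higher and 1 lower. Among all tested probe sets 26.3% had such groups, 12.3% higher and 14.0% lower, so the count is near the background. The hearts of the Cav1KO group differed among themselves. Replicate 3 was the closest to the WT hearts at each of the 3 called probe sets, and the highest of all 6 hearts at 6 of the 15 tested ones. Replicate 2 was the lowest of all hearts at 6. Without replicate 3, Clec3b stood at -0.75, Meox1 at 0.59 and Mfap5 at 0.47 (limma adjusted p = 0.0109, 0.0108 and 0.0100), and Dpt changed sign, at -0.038.

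A second list of 20 measured genes of resting or general fibroblasts gave 1 rise and 0 falls, with 19 genes that did not pass and a median log2 fold change of 0.10. Of the 20, 17 had a positive and 3 a negative log2 fold change, and 7 an unadjusted limma p under 0.05. The share of all genes with a positive sign or with such a p was not counted, here or for the lists below. Such a p was common: the dimmer Mfap5 probe set, at an unadjusted limma p of 0.00564, ranked 1327 of the 22519 tested. With 1 probe set per gene, 2.97% of all genes passed as higher and 1.05% as lower, 4.02% together. The one that rose was Cd34, a sialomucin of fibroblasts that endothelial cells also carry, at 1249, 1201 and 1176 in Cav1KO hearts, against 835, 800 and 837 in WT hearts (log2 fold change 0.54, limma adjusted p = 0.000818). Dpp4 and Col15a1 had the next smallest adjusted p, at log2 fold changes of 0.37 and 0.29 (limma adjusted p = 0.0806 and 0.0954). Scara5, a ferritin receptor of adventitial fibroblasts, had the most negative value of the list, chosen here after it was seen. It read 378, 307 and 543 in Cav1KO hearts, against 591, 544 and 599 in WT hearts (log2 fold change -0.52, limma adjusted p = 0.131). Frzb, a secreted Wnt antagonist also chosen after its values were seen, had a log2 fold change of 0.63 (limma adjusted p = 0.112). Without Cav1KO replicate 3 both passed, Scara5 at -0.74 and Frzb at 0.87 (limma adjusted p = 0.00827 and 0.00697), so that the list then held 2 rises and 1 fall. Without WT replicate 1 it held 2 rises, Cd34 and Cygb.

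Of 19 tested genes of activated fibroblasts 4 rose, 0 fell and 15 did not pass, with a median log2 fold change of 0.28. Over all genes 2.97% passed as higher and 1.05% as lower. Of the 19, 16 had a positive and 3 a negative log2 fold change, and 13 an unadjusted limma p under 0.05. The list was chosen with earlier results known, so the count is a description. With 1 heart left out 3 to 5 genes rose, and 4 to 6 in the other settings. S100a4, a calcium-binding protein of fibroblasts and leukocytes, read 328, 309 and 312 in Cav1KO hearts, against 195, 174 and 160 in WT hearts (log2 fold change 0.79, limma adjusted p = 0.00133). Comp, a matrix protein that binds collagen, read 372, 437 and 408 in Cav1KO hearts, against 273, 254 and 314 in WT hearts (log2 fold change 0.51, limma adjusted p = 0.0164). It did not pass without Cav1KO replicate 2 or WT replicate 1, the highest adjusted p being 0.0771. Cilp, a secreted matrix protein, read 453, 433 and 379 in Cav1KO hearts, against 253, 218 and 213 in WT hearts (log2 fold change 0.84, limma adjusted p = 0.00183). Postn, the matrix protein periostin, was the other. In all 4 genes the Cav1KO hearts lay above all WT hearts, which was also so at 12.3% of all tested probe sets. The 4 were named because they passed as higher in these same hearts, so this is no further support.

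The contractile genes of myofibroblasts did not pass: Acta2 had a log2 fold change of 0.098 and Tagln of -0.14 (limma adjusted p = 0.271 and 0.171). Fap, a surface protease of activated fibroblasts, stood at 0.095 and Ccn2, a target of TGF beta, at -0.15 (limma adjusted p = 0.642 and 0.501). Sfrp2, Timp1 and Fn1 had larger positive values and did not pass either, at 0.66, 0.51 and 0.29 (limma adjusted p = 0.0848, 0.076 and 0.0703). Cthrc1, Tnc, Grem1 and Fosl1 were too dim to be tested. Cthrc1 read 32.3, 43.9 and 49.6 in Cav1KO hearts, against 25.2, 25.7 and 25.4 in WT hearts, without overlap. Tnc read 39.5, 40.1 and 38.7 in Cav1KO hearts, against 36.2, 31.0 and 28.6 in WT hearts, also without overlap. Grem1 and Fosl1 had log2 differences of -0.050 and -0.10. Such higher groups were found at 12.3% of all tested probe sets, a share that leaves out dim probe sets like these.

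Of 48 tested genes in 8 lists of families and partners of the markers 5 rose and 0 fell, 10.4%, where 4.02% of all genes passed. The lists were chosen with earlier results known, so the share is a description. In the gelsolin family Capg, a macrophage-rich actin capping protein, rose by 0.93 on the log2 scale (limma adjusted p = 0.00108), and the other 5 tested members did not pass. It read 311, 305 and 250 in Cav1KO hearts, against 145, 145 and 139 in WT hearts. In the Cd248 family Cd93, an endothelial and myeloid receptor, rose by 0.52 (limma adjusted p = 0.00633), 1 of 3. Of 5 tested genes around Clec3b and plasminogen, Plat, which activates plasminogen, rose by 0.42 (limma adjusted p = 0.0255), and did not pass without Cav1KO replicate 1 or 2, WT replicate 2 or WT replicate 3, with a highest adjusted p of 0.117. Plg and Plau were too dim to be tested.

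Of 5 tested partners and relatives of Tcf21, its partner Tcf4 rose by 0.22 (limma adjusted p = 0.0444) at 1 of its 6 tested probe sets, and passed in only 4 of 15 alternatives, none of them leaving out a heart. Of 8 tested relatives and regulators of Meox1, Tgfbr2 rose by 0.31 (limma adjusted p = 0.0379) at 1 of its 2 tested probe sets, and held in 8 of 15 alternatives but not without WT replicate 1 or 3 or any 1 of the Cav1KO hearts, with a highest adjusted p of 0.14. Without WT replicate 2 the list held 2 rises. Meox2, the closest relative of Meox1 and an endothelial gene in the heart, read 369, 437 and 372 in Cav1KO hearts, against 240, 326 and 282 in WT hearts (log2 fold change 0.46, limma adjusted p = 0.0586). Its groups did not overlap, and a second, dimmer probe set of it was called as higher. In 3 lists no gene passed with limma: 0 of 6 PDGF ligands and receptors, 0 of 4 relatives of Pi16 and 0 of 11 microfibril genes, with 2, 1 and 7 genes at an unadjusted limma p under 0.05. Without WT replicate 1 the microfibril list held 1 rise. The medians of these 3 lists were 0.098, 0.068 and 0.16.

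**Figure D4:**
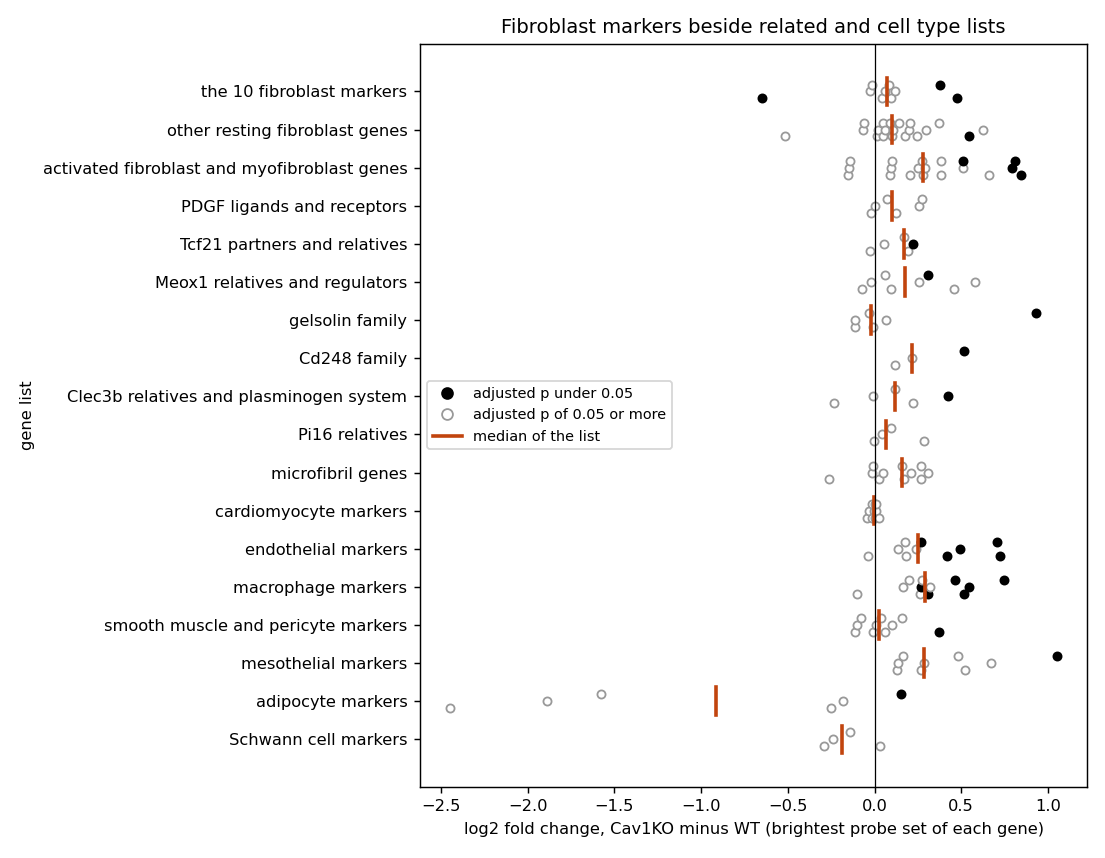
Log2 fold change of Cav1KO against WT hearts for the brightest probe set of each tested gene, with 1 row per gene list. Filled points passed at an adjusted p of 0.05 over all tested probe sets, open points did not, and the coloured bar is the median of the list. Activated fibroblast genes have a median of 0.28, other resting fibroblast genes of 0.10 and the 10 markers of 0.071, while cardiomyocyte markers lie close to 0.

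Among markers of other cells of the heart, some endothelial and macrophage genes rose, where 2.97% of all genes passed as higher. Of 10 endothelial markers 5 rose and 0 fell (Pecam1, Tek, Tie1, Cldn5 and Esam), and the list summed to 6233 to 7273 in Cav1KO hearts and 5177 to 5400 in WT hearts. Of 12 macrophage markers 6 rose and 0 fell (Ctss, Ptprc, Laptm5, C1qa, Mrc1 and Mpeg1), with sums of 6699 to 7047 in Cav1KO hearts and 5173 to 5842 in WT hearts. Of 10 smooth muscle and pericyte markers 1 rose (Higd1b, which did not pass without Cav1KO replicate 1 or 2 or WT replicate 3), with sums of 16351 to 16630 in Cav1KO hearts and 15877 to 16080 in WT hearts. Of 9 tested mesothelial markers 1 rose at its brightest probe set, Lrrn4, with sums of 1338 to 1530 in Cav1KO hearts and 759 to 1233 in WT hearts. At dimmer probe sets Upk1b was called as higher at 3 of 4, Gpm6a at 1 of 2 and the macrophage gene Fcgr1 at 1 of 2. With the mean of a gene's tested probe sets the mesothelial count was 3. The lowest deposited value on any array was 5.1, so no marker could read 0. The endothelial count was 3 without Cav1KO replicate 2 or any 1 of the WT hearts. With 1 heart left out the macrophage count was 0 to 4, with 0 without Cav1KO replicate 1, 2 without Cav1KO replicate 2, WT replicate 1 or WT replicate 3, 3 without Cav1KO replicate 3 and 4 without WT replicate 2. The mesothelial count was 0 without any 1 of the Cav1KO hearts and 2 without WT replicate 1. The part of these cells in the values of Meox1, Mfap5, Cd34, Capg and Cd93 was not tested.

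Of 6 tested adipocyte markers Fabp4, also an endothelial gene, rose and 5 did not pass, with a median log2 fold change of -0.92. Fabp4 kept its call only without WT replicate 2 among the 6 fits that left out a heart. The list summed to 10489 to 11152 in Cav1KO hearts and 9988 to 11684 in WT hearts, most of it Fabp4. Adipoq, the adipokine adiponectin, read 65.2, 53.5 and 262 in Cav1KO hearts, against 225, 380 and 816 in WT hearts (log2 fold change -1.89, limma adjusted p = 0.109). Pck1 and Ucp1, which fat cells also express, had log2 fold changes of -1.58 and -2.45 (limma adjusted p = 0.098 and 0.107). Within the Cav1KO hearts Adipoq and Clec3b had the same order, highest in replicate 3 and lowest in replicate 2. Within the WT hearts the order differed, with Adipoq highest in replicate 3 and Clec3b in replicate 1. The part of fat in the values of Clec3b and Scara5 was not tested. In Schwann cell markers 0 of 4 tested passed with limma (2 at an unadjusted p under 0.05), and the sums were 587 to 633 in Cav1KO hearts and 635 to 673 in WT hearts.

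The genes most like Clec3b over the 6 hearts, by Pearson's correlation of log2 values among 19749 named probe sets, were Ppp2r3a, Fam83d and Gstm1, each at r = 0.998 or 0.997. For Meox1 they were Slc20a1, Ehd1 and Tuba1a, at r = 0.996, 0.994 and 0.993. The points share the arrays and the split into the same groups, and 770 probe sets reached r over 0.9 with Clec3b and 518 with Meox1. The likeness is a description of these 6 hearts.

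**Figure D5:**
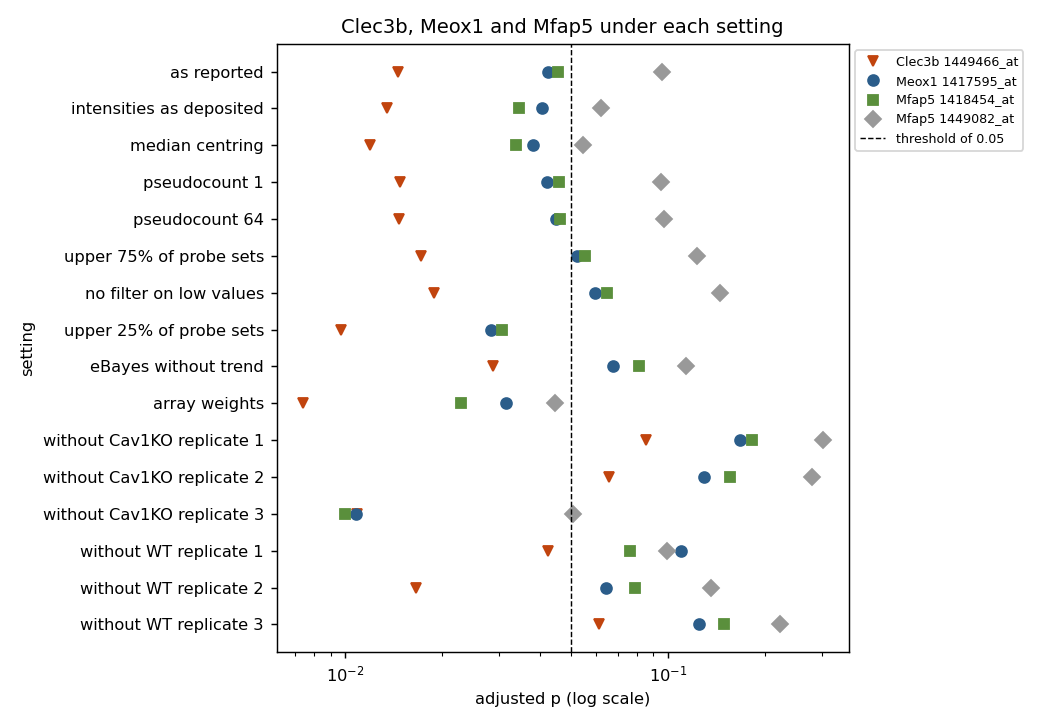
Adjusted p from limma (horizontal axis, log scale) of the Clec3b, Meox1 and Mfap5 probe sets as reported and under 15 alternative settings, 1 per row. The dashed line is the threshold of 0.05. Clec3b stays left of it in 12 alternatives, Meox1 and the brighter Mfap5 probe set in 7 each, and the dimmer Mfap5 probe set in 1 of the 14 that tested it.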

How the data were processed

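Heart RNA was hybridised to Affymetrix mouse expression arrays, 1 array per sample, from 2 ug of RNA per the labels. The deposited table gives 1 intensity on a linear scale per probe set. GCOS 1.4 appears in the submitters' processing notes, and the background correction, summary and scaling are not given in the sources used here. Trimmed means of the deposited intensity differed by up to 8.42%, so the 45037 probe sets that were no controls were quantile normalised. The fit used lmFit and eBayes with a trend (limma 3.58.1, R 4.3.3), with no covariate, on the upper 50% of probe sets by mean of log2(intensity + 16). It was tested on simulated data. The number of arrays limits the precision.

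Symbols came from the platform annotation of 2016 and, for 3 list genes, from RefSeq synonyms (GRCm38.p6). In the annotation 34945 probe sets had 1 symbol, 932 several and 9160 none. Lists used the brightest probe set of each gene, and 15 list genes had no probe set named with 1 symbol here.

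By rule the text names all marker probe sets, Cav1, the list genes past the threshold (at most 6 a list, by p), defining cell type markers, and the 3 genes most like Clec3b and Meox1. Other list genes named were chosen after their values were seen. The members and lists were chosen with earlier results of these data known. Alternatives were the scaling, pseudocount, filter, trend, array weights and each heart left out.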

Additional observations from a re-analysis of the deposited data

How the results depend on the processing

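Cav1 kept its direction and call, and both differences of Meox1 from a resting marker their direction, in all alternatives run. Of the 15 tested marker probe sets, 3 passed as reported. With the upper 75% of probe sets, no filter, or no trend 1 passed, Clec3b, and without 1 heart 0 to 3 passed. The 0 occurred without Cav1KO replicate 1, Cav1KO replicate 2 or WT replicate 3, where limma gave 4, 5 and 4 at an unadjusted p under 0.05. As reported it gave 4, and the share of all tested probe sets at that level was not counted. The count over the array was 714 as reported, 411 without a trend, 1171 with array weights and 189 to 749 without 1 heart. The share of calls that were higher, 74.4% as reported, was 90.9% with the intensities as deposited and 93.5% when centred on the median, and the median of all tested probe sets moved by less than 0.1. Rises among the other resting genes were 2 as deposited or when centred, 4 with array weights and 1 to 2 without 1 heart.

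Markers that did not pass changed sign in 13 cases. Gsn 1415812_at stood at -0.00054 as deposited, -0.035 with array weights, and -0.027, -0.027 and -0.0068 without Cav1KO replicate 3, WT replicate 1 or WT replicate 2. Gsn 1437171_x_at stood at 9.5e-05 when centred, and 1456312_x_at at 0.013 without Cav1KO replicate 2. Their ranges without 1 heart ended at 0.051 for 1415812_at and -0.057 for 1456312_x_at. Cd248 stood at 0.033 as deposited, 0.052 when centred and 0.022 without WT replicate 1, with -0.060 at the other end. Pdgfra 1421916_at stood at -0.033 without Cav1KO replicate 1, Dpt at -0.038 without Cav1KO replicate 3 and Tcf21 at -0.024 without WT replicate 2. Their other ends were 0.087 for Pdgfra and 0.13 for Dpt. That of Tcf21 was 0.13 when centred, and 0.097 among the fits that left out a heart. Without changing sign, Pdgfra 1421917_at moved between 0.019 without Cav1KO replicate 3 and 0.22 without Cav1KO replicate 2. Mfap4 moved between 0.023 without WT replicate 2 and 0.19 when centred, and stood at 0.14 without Cav1KO replicate 2. Pi16 moved between 0.010 without Cav1KO replicate 1 and 0.17 when centred. The causes were not tested. No paired analysis was possible because the groups share no replicate number: the Cav1KO titles carry only a number of their own for each sample, and the index 1 to 3 stands in the WT titles alone. Dim probe sets limit what can be said: 5 of 20 were not tested.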
